A study of Mus musculus with 6 samples.

Results

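Antigen presentation on MHC class I was followed through 10 genes in brown adipose tissue (BAT) of mice that lack the soluble form of ST2 (sST2-KO) and of their wild-type (WT) littermates. The genes were picked by name for their role in the pathway, at a time when earlier results of these data were known. They are the heavy chains H2-K1 and H2-D1, the light chain B2m, the peptide transporter genes Tap1 and Tap2, the loading factor Tapbp, the immunoproteasome subunits Psmb8, Psmb9 and Psmb10, and the regulator Nlrc5. All 10 were among the 14542 genes tested, out of 35976 in the table of counts.

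MHC class I molecules show short peptides from inside the cell to CD8+ T cells and to natural killer (NK) cells. The proteasome cuts the peptides, the TAP transporter carries them into the endoplasmic reticulum, and tapasin holds the empty heavy chain and light chain there until a peptide is bound. Interferon-gamma is known to raise all of these genes and to exchange the constitutive catalytic subunits of the proteasome for those of the immunoproteasome, and nearly every nucleated cell, adipocytes included, makes class I molecules.

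BAT of 3 WT and 3 sST2-KO mice was profiled by RNA-seq on poly-A-selected RNA, with 8159442 to 12874809 counts per library. The mice were males of 10 weeks on a C57BL/6J background, and both groups had the sympathetic nerves of BAT cut, were held at 30 °C for 7 days and were then exposed to 10 °C for 8 h, so the comparison holds for denervated, cold-exposed BAT. In the sST2-KO allele, made by CRISPR/Cas9, exons 8 and 9 of Il1rl1 are joined without their intron. The membrane form of the receptor is encoded by the same gene, so counts per gene do not check the deletion, and the normalized level of Il1rl1 was 0.74 to 1.79 CPM (counts scaled to a common library size) in WT and 3.83 to 14 in sST2-KO mice. Markers of several cell types also differed between the groups. The 7 brown adipocyte markers were detected in every library, with a summed level of 8193 to 15491 CPM in WT and 331 to 1778 CPM in sST2-KO mice, and many of them are thermogenic genes. The 5 markers of all adipocytes summed to 12793 to 15977 CPM in WT and 4491 to 8795 CPM in sST2-KO mice, and 1 of the 5 fell at the adjusted p in edgeR. The 6 markers shared by leukocytes summed to 229 to 321 CPM in WT and 850 to 1922 CPM in sST2-KO mice, and skeletal muscle markers to 6.16 to 1191 and 3228 to 14519 CPM. The liver markers reached 3457 CPM in WT replicate 2, against 7.18 to 9.14 CPM in sST2-KO mice. In bulk tissue, fewer cells of a type and less RNA per cell cannot be told apart.

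Most of the 10 genes lie in the MHC on mouse chromosome 17 (GRCm39). H2-K1 lies at chr17:34214987-34219321 on the minus strand, Tapbp at chr17:34134873-34148267, H2-D1 at chr17:35481691-35486475 and B2m at chr2:121977957-121983594, all 3 on the plus strand. Psmb9 (chr17:34400960-34406738, minus strand), Tap1 (chr17:34405996-34416199), Psmb8 (chr17:34416690-34420428) and Tap2 (chr17:34422501-34435829) lie next to each other, the last 3 on the plus strand. Psmb10 (chr8:106662362-106665077, minus strand) and Nlrc5 (chr8:95160984-95253900, plus strand) lie outside the MHC.

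The sequences upstream of the class I genes are shown because the heavy chains and B2m are known to share promoter elements, and because their levels are compared with each other and with Tap1 below. They were taken from 300-base promoter windows of RefSeq (GRCm38.p6), which held 8 of the 10 genes, and placed on GRCm39 by an exact match. The window of H2-Q7 matched at 2 places near the gene, and the position given is the one nearest to its annotated start. Capitals mark the NF-kB-like motif GGGNNTTCC, the interferon-stimulated response element (ISRE) core GAAANNGAA, the cAMP response element core TGACG and the Y box CCAAT, or ATTGG where it lies on the other strand. All motifs were searched on both strands.
H2-K1, chr17:34219333-34219432, minus strand: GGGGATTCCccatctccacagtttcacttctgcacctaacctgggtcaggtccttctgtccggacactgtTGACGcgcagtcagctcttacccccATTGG
H2-D1, chr17:35481899-35481998, plus strand: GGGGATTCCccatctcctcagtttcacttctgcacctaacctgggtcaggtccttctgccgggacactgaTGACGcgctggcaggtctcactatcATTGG
H2-Q7, chr17:35657998-35658095, plus strand: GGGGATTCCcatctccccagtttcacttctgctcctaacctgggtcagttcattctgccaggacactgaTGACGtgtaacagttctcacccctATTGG
B2m, chr2:121978029-121978119, plus strand: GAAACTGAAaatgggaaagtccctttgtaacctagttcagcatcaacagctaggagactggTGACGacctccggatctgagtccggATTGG
H2-M3, chr17:37581079-37581108, plus strand: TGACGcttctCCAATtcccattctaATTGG

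The core TGACG was followed by ATTGG with 24 or 25 bases from start to start in all 5 of these stretches, and H2-Q7 and H2-M3 were chosen for display because they hold it. Of 5 windows of other heavy chains that were searched, 2 held the arrangement, and those of H2-Q4, H2-Q6 and H2-Q10 did not. The spacing was 25 bases in H2-K1, H2-D1, B2m and H2-M3 and 24 bases in H2-Q7. This arrangement was noticed after the matches had been seen. It was present in 43 of 32851 mouse promoter windows (0.131%) and in 3 of the 8 windows of the 10 genes. The single motifs were common, with TGACG in 20.8%, CCAAT in 37.4%, the ISRE core in 8.56%, GGGNNTTCC in 5.82% and the interferon-gamma-activated site TTCNNNGAA in 8.3% of all windows. Of the 8 windows, 5 held TGACG, 6 held CCAAT, 2 (H2-K1 and H2-D1) held GGGNNTTCC, 1 (B2m) held the ISRE core and 1 (Psmb8) held TTCNNNGAA. A match is a description of the letters and was not tested as a site.

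Tap1 and Psmb9 are read away from each other, and the 225 bases between their RefSeq starts, shown on the strand of Tap1, were:
Tap1 to Psmb9, chr17:34406305-34406529: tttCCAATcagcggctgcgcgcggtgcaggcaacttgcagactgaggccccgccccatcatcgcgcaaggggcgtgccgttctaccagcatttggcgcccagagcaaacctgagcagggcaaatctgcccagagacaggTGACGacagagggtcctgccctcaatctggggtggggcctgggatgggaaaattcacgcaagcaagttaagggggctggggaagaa
This stretch held CCAAT near the start of Psmb9 and TGACG nearer to Tap1, and did not hold the spaced arrangement. Both genes share the stretch, and their levels are compared below.

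**Figure D1:**
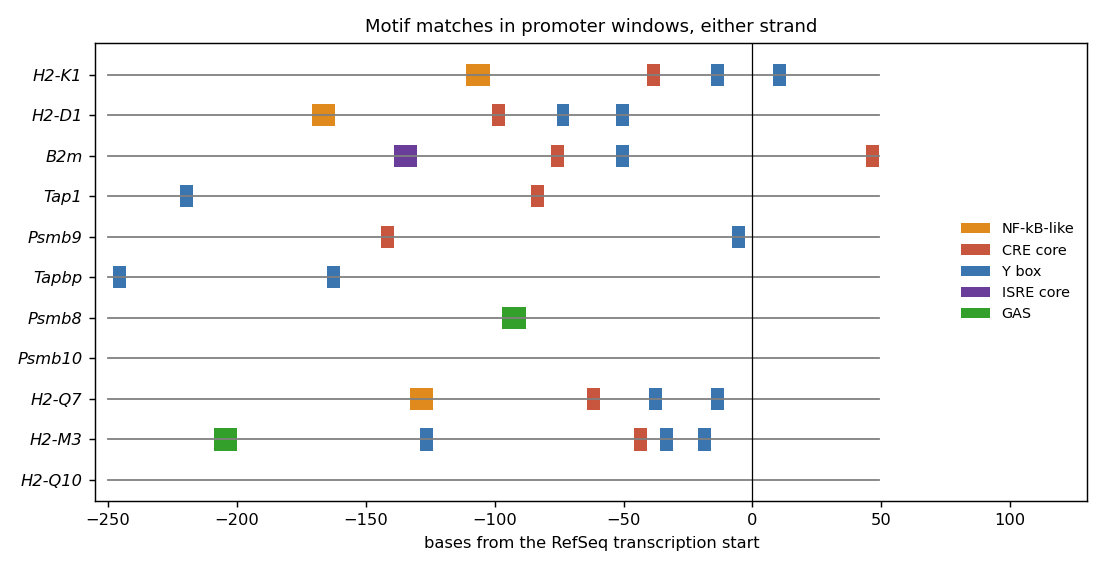
Positions of the searched motifs in the promoter windows, with the distance in bases from the RefSeq start on the horizontal axis and 1 line per gene, for the 8 genes with a window and for H2-Q7, H2-M3 and H2-Q10. H2-K1, H2-D1 and B2m each hold TGACG upstream of a Y box on the other strand, and Psmb10 and H2-Q10 hold none of the 5 motifs.

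Differences in the transcripts of MHC class I presentation between sST2-KO and WT BAT were small. The estimated level was higher in sST2-KO mice for 9 of the 10 genes, with a median log2 fold change of 0.31, against 0.034 over all genes tested. With 1 library left out the median was 0.24 to 0.5, the highest without WT replicate 2. Only Tap1 passed an adjusted p of 0.05 (edgeR quasi-likelihood test, adjusted over all genes tested), which 19.6% of all genes did. In edgeR at this adjusted p, 0 of the 10 were called more than 2-fold higher or lower, compared with 9.04% and 7.1% of all genes. The count was also 0 in DESeq2. At an unadjusted p under 0.05 it could only be 0, since all 10 estimates of the edgeR fit lay within 2-fold. The WT and sST2-KO libraries did not overlap for H2-K1, B2m and Tap1, 3 of 10 genes, whereas 41.5% of all genes showed no overlap in one or the other direction.

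Together the 10 genes made up 0.996%, 1.05% and 0.76% of a WT library and 1.4%, 1.47% and 1.43% of an sST2-KO library. The sST2-KO replicate 2 had the highest level of all 6 libraries for all 10 genes. The lowest level was in WT replicate 3 for 6 genes and in WT replicate 1 for the other 4. The size of the difference depended on the scaling. When libraries were scaled by their total counts, the median of the 10 genes was 0.56 and that of all genes was 0.29.

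**Figure D2:**
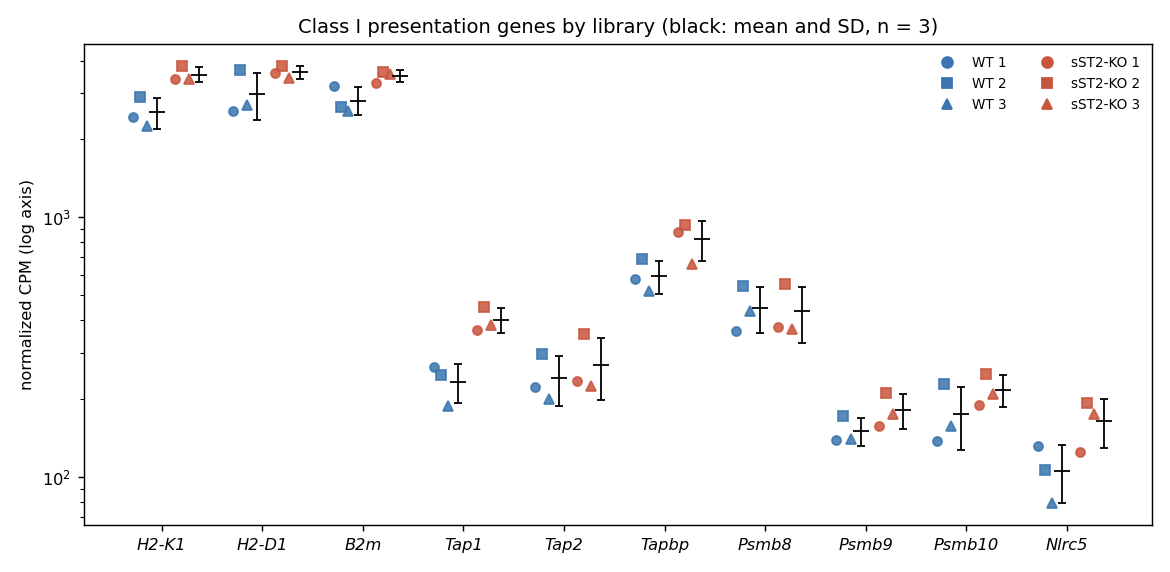
Normalized level (CPM, log axis) of each of the 10 genes in each of the 3 WT and 3 sST2-KO libraries, with the mean and SD of each group (n = 3) in black. The groups are apart for H2-K1, B2m and Tap1 and overlap for the other 7 genes.

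The classical heavy chains, which bind the peptide, were among the abundant transcripts of the tissue. H2-K1 was at 2435, 2900 and 2246 CPM in WT and 3403, 3803 and 3389 CPM in sST2-KO mice. All 3 sST2-KO libraries were above all 3 WT libraries, but the log2 fold change of 0.48 (SE 0.28, 95% interval -0.17 to 1.14) had an adjusted p of 0.257 in edgeR. H2-D1 was at 2551, 3667 and 2707 CPM in WT and 3568, 3818 and 3416 CPM in sST2-KO mice. The level in WT replicate 2 lay within the sST2-KO range, and the log2 fold change was 0.28 (SE 0.3, 95% interval -0.42 to 0.97, adjusted p = 0.543 in edgeR). Both genes have near copies in the MHC, but in the annotation 0.124% of the 150-base windows of H2-K1 and 0.643% of those of H2-D1 were identical to a stretch of another gene. On the opposite strand, the long non-coding genes Gm53999 and 5430410E06Rik overlap exons of H2-K1 by 855 bp and of H2-D1 by 723 bp, and strand use in the counting is unknown here.

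B2m encodes beta-2-microglobulin, the light chain that all class I molecules need at the cell surface. Its level was 3202, 2663 and 2558 CPM in WT and 3284, 3625 and 3562 CPM in sST2-KO mice. WT replicate 1 came close to the lowest sST2-KO library. The log2 fold change was 0.31 (SE 0.28, 95% interval -0.34 to 0.96, adjusted p = 0.457 in edgeR). Within a library, the ratio of H2-K1 to H2-D1 differed between the groups by 0.2 on the log2 scale (p = 0.2) and that of B2m to H2-K1 by -0.17 (p = 0.4, exact two-sided permutation tests). With 3 libraries against 3, such a test cannot go below 0.1.

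Tap1, 1 of the 2 chains of the peptide transporter, was the member that rose. It was at 264, 246 and 187 CPM in WT and 369, 451 and 384 CPM in sST2-KO mice, or 233 ± 40.5 and 401 ± 43.8 CPM (mean ± SD, n = 3 each). The log2 fold change was 0.79 (SE 0.22, 95% interval 0.26 to 1.31), or 1.73-fold, with an adjusted p of 0.047 in edgeR. This call lay close to the threshold. It was not kept when any 1 of the 6 libraries was left out (log2 fold change 0.65 to 0.88, adjusted p 0.0568 to 0.176), and the adjusted p was 0.0511 with RLE size factors and 0.0653 without a filter on low counts.

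Tap2, the partner chain of Tap1, was at 221, 298 and 199 CPM in WT and 233, 355 and 224 CPM in sST2-KO mice. Its groups overlapped, with a log2 fold change of 0.18 (SE 0.27, 95% interval -0.45 to 0.8, adjusted p = 0.674 in edgeR). The ratio of Tap1 to Tap2 counts was 1.19, 0.828 and 0.941 in WT and 1.58, 1.27 and 1.72 in sST2-KO mice, a 1.55-fold difference without overlap (p = 0.1, the smallest the exact permutation test allows). The ratio of Tap1 to Psmb9, its neighbour, was 1.91, 1.43 and 1.34 in WT and 2.35, 2.14 and 2.2 in sST2-KO mice, 1.45-fold higher without overlap (exact permutation p = 0.1). Both ratios were chosen after the values of these genes had been seen. Exons of Tap1 and Psmb9 overlap by 743 bp on opposite strands, and whether reads were counted by strand is not given in the sources used here, so reads from the overlap may be assigned to either gene or to none.

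Tapbp encodes tapasin, which ties the empty class I molecule to the transporter. It was at 575, 688 and 517 CPM in WT and 878, 931 and 659 CPM in sST2-KO mice. The sST2-KO replicate 3 was below WT replicate 2, and the log2 fold change was 0.47 (SE 0.25, 95% interval -0.12 to 1.06, adjusted p = 0.221 in edgeR). Its value is less certain than the others because exons of Zbtb22 overlap it by 923 bp on the same strand.

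**Figure D3:**
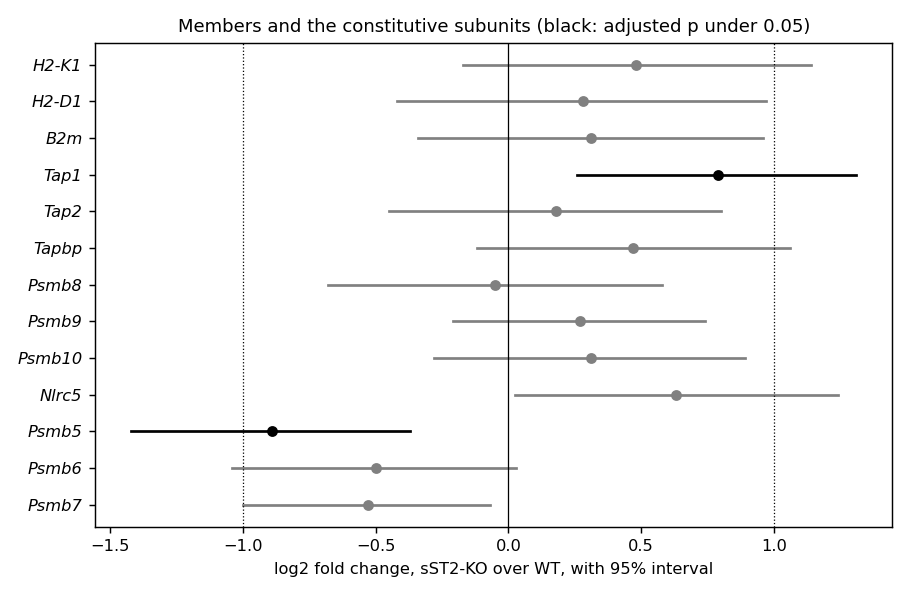
Log2 fold change of sST2-KO over WT for the 10 genes and the 3 constitutive catalytic subunits, with 95% intervals of the edgeR fit and dotted lines at 2-fold. Tap1 and Psmb5, drawn in black, passed the adjusted p, and the estimates of all 13 genes lie within 2-fold.

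The immunoproteasome subunits take the place of the constitutive catalytic subunits when new proteasomes are built. Psmb8, which replaces Psmb5, was at 365, 545 and 435 CPM in WT and 376, 554 and 370 CPM in sST2-KO mice. Its groups overlapped, and the difference of -0.049 on the log2 scale (SE 0.27, 95% interval -0.68 to 0.58, adjusted p = 0.913 in edgeR) turned to 0.21 with scaling by total counts. Psmb9, which replaces Psmb6, was at 139, 172 and 140 CPM in WT and 157, 211 and 175 CPM in sST2-KO mice. Its groups overlapped too, with a log2 fold change of 0.27 (SE 0.2, 95% interval -0.21 to 0.74, adjusted p = 0.381 in edgeR). Psmb10, which replaces Psmb7, was at 138, 228 and 157 CPM in WT and 189, 249 and 209 CPM in sST2-KO mice, with overlap and a log2 fold change of 0.31 (SE 0.25, 95% interval -0.28 to 0.89, adjusted p = 0.417 in edgeR).

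The estimates of the constitutive subunits were all below 0. Psmb5 was at 56.5, 74.6 and 97.3 CPM in WT and 41.7, 37.7 and 43.4 CPM in sST2-KO mice, without overlap. It fell by 0.89 on the log2 scale (SE 0.23, adjusted p = 0.0336 in edgeR), and the difference was -0.61 with scaling by total counts (adjusted p = 0.0671). With 1 library left out, it passed in 1 of 6 fits (adjusted p 0.0285 to 0.12). Psmb6 and Psmb7 had log2 fold changes of -0.5 (adjusted p = 0.157) and -0.53 (adjusted p = 0.0982), which did not pass. Psmb7 shares 2817 bp of exons with Nek6 on the opposite strand.

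Within each library, the ratio of an immunoproteasome subunit to the subunit it replaces does not depend on the scaling between libraries. The ratio of Psmb8 to Psmb5 counts was 6.45, 7.3 and 4.47 in WT and 9.02, 14.7 and 8.51 in sST2-KO mice, 1.75-fold higher. The ratio of Psmb9 to Psmb6 was 1.32, 1.01 and 0.83 in WT and 1.53, 1.94 and 1.71 in sST2-KO mice, 1.66-fold higher. The ratio of Psmb10 to Psmb7 was 0.774, 1.08 and 0.622 in WT and 1.26, 1.66 and 1.45 in sST2-KO mice, 1.8-fold higher. In all 3 pairs, every sST2-KO library was above every WT library (p = 0.1 each, exact permutation test, the smallest it allows). These ratios are of counts per gene and do not correct for gene length. On the log2 scale, Psmb8, Psmb9 and Psmb10 were at -0.049, 0.27 and 0.31, and Psmb5, Psmb6 and Psmb7 at -0.89, -0.5 and -0.53. With scaling by total counts, Psmb8 was at 0.21 and Psmb5 at -0.61. The part of each gene in the higher ratio of Psmb8 to Psmb5 thus depends on the scaling, unlike the ratio. The ratio of Psme1, an activator gene and no catalytic subunit, to Psmb5 was also higher without overlap, 1.96-fold (exact permutation p = 0.1). It was not among the planned ratios. The markers of leukocytes, in which the immunoproteasome is the usual form, were higher in the same 3 libraries, and their part in these ratios was not tested.

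**Figure D4:**
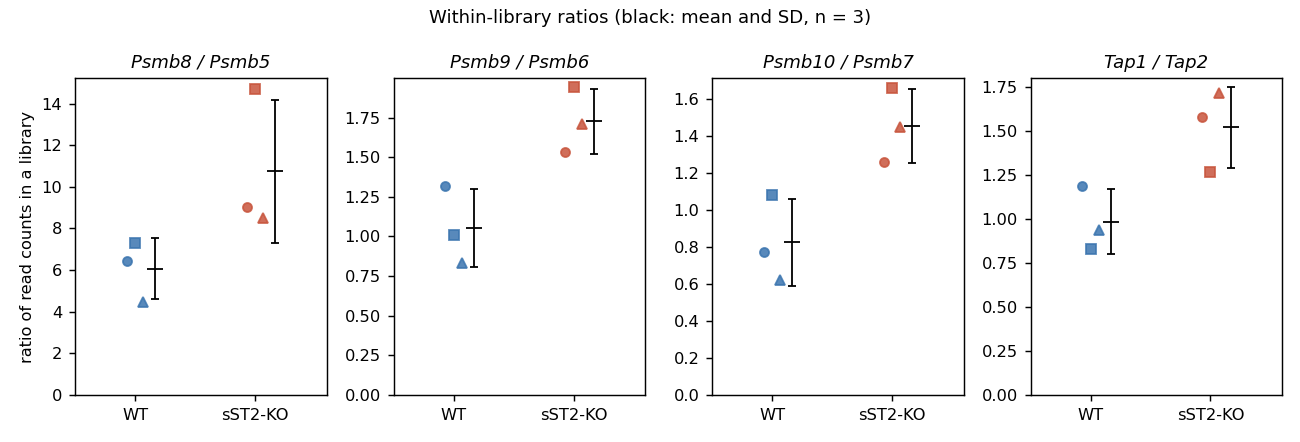
Ratios of counts within each library for the 3 pairs of immunoproteasome and constitutive subunits and for Tap1 to Tap2, with 1 point per library and the mean and SD (n = 3) in black; the axes start at 0. In each panel all 3 sST2-KO points lie above all 3 WT points.

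No other proteasome gene of the lists passed. Of the 11 other subunits of the 20S core, 9 activator and assembly genes and 17 subunits of the 19S regulatory particle, 0 passed the adjusted p in edgeR and 0 in DESeq2, with 2, 1 and 1 at an unadjusted p under 0.05 in edgeR. Their median log2 fold changes were -0.046, 0.0015 and -0.07. Over all genes, 5269 of 14542 were at an unadjusted p under 0.05 in edgeR. Psme1 and Psme2, the chains of the interferon-inducible activator PA28, had log2 fold changes of 0.11 (adjusted p = 0.728) and 0.1 (adjusted p = 0.731). Of 7 genes of peptide loading and trimming, 0 passed in edgeR, where 3 were at an unadjusted p under 0.05, and 2 passed in DESeq2. Pdia3, a partner of tapasin, came closest at 280, 278 and 213 CPM in WT and 347, 507 and 523 CPM in sST2-KO mice (log2 fold change 0.84, adjusted p = 0.0539). Bcap31, which sorts class I molecules for export, was at -0.62 (adjusted p = 0.0612), and the trimming enzyme Erap1 at 0.29 (adjusted p = 0.269).

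Nlrc5 is the transactivator that drives class I promoters, and its own level was modest. It was at 132, 106 and 79.3 CPM in WT and 125, 193 and 175 CPM in sST2-KO mice. The sST2-KO replicate 1 lay within the WT range, and the log2 fold change of 0.63 (SE 0.26, 95% interval 0.024 to 1.24) had an unadjusted p of 0.0435 and an adjusted p of 0.127 in edgeR. Relative to Ptprc, which encodes CD45 and marks all leukocytes, the count of Nlrc5 was 3.29, 3.45 and 3.26 in WT and 0.997, 1.11 and 0.618 in sST2-KO mice. This ratio was lower in all 3 sST2-KO libraries (exact permutation p = 0.1, the smallest the test allows). It was not among the planned ratios. Ptprc rose by 2.61 on the log2 scale, more than Nlrc5, so the lower ratio follows from the choice of Ptprc and is no separate result.

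Of the 23 tested genes that regulate class I, 6 rose at the adjusted p in edgeR and 0 fell, against 10.5% and 9.1% of all genes. Of the 6, 4 rose by more than 2-fold, as did 9.04% of all genes. The list's median log2 fold change was 0.67, against 0.034 over all genes. Ifng, the gene of interferon-gamma, had the highest value at 6.04 (adjusted p = 0.0147), which rested on 2, 8 and 1 counts in WT and 71, 242 and 424 counts in sST2-KO mice. The interferon receptor chain Ifngr2 rose by 1.65 (adjusted p = 0.0221) and the receptor kinase Jak2 by 1.47 (adjusted p = 0.0187). With 1 library left out, 0 to 7 of the 23 genes rose, with 1 without WT replicate 2, 0 without WT replicate 3 and 3 without either sST2-KO replicate 2 or 3. The other 3 that rose, named after their values had been seen, were the transcription factor genes Irf8, Irf2 and Nfkb1, with log2 fold changes of 1.23, 0.96 and 0.87 (adjusted p of 0.0421, 0.0277 and 0.0211). Irf1, a transcription factor that interferon induces, did not pass, at 0.73 on the log2 scale (adjusted p = 0.124). Rfx5, a subunit of the complex that Nlrc5 binds at class I promoters, was at 0.81 (adjusted p = 0.124), and Ciita, the class II counterpart of Nlrc5, at 0.72 (adjusted p = 0.363).

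Among the other class I heavy chains, 11 were tested, of which 6 rose and 1 fell at the adjusted p in edgeR, against 10.5% and 9.1% of all genes. H2-M3, which presents formylated peptides, was at 23.2, 18.8 and 15.5 CPM in WT and 30, 46.5 and 51.6 CPM in sST2-KO mice (log2 fold change 1.15, adjusted p = 0.0255). H2-T10 rose by 1.1 (adjusted p = 0.0349). H2-Q4, H2-Q5, H2-Q6 and H2-Q7, named after their values had been seen, rose by 0.86, 0.7, 0.88 and 0.91 with adjusted p of 0.0457, 0.0369, 0.0397 and 0.035. These genes resemble each other, and 2.97% to 5.05% of the 150-base windows of H2-Q4, H2-Q6 and H2-Q7 were shared with another gene, so that their counts are less certain than those of H2-K1. With 1 library left out, 0 to 3 of the 11 genes rose at the adjusted p, and 0 did when the library left out was replicate 2 or 3 of either group, while the median log2 fold change stayed between 0.55 and 0.81.

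H2-Q10, a class I chain known to be secreted by the liver, was the heavy chain that fell. It was at 75.1, 209 and 113 CPM in WT and 42.5, 20.1 and 24.1 CPM in sST2-KO mice, a log2 fold change of -2.19 (adjusted p = 0.0193 in edgeR). Of its 150-base windows, 5.21% were shared with another gene, so that its counts too are less certain than those of H2-K1. The highest value was in WT replicate 2, the library with the highest liver markers. Leaving that library out gave -1.7 (adjusted p = 0.0499), and leaving out WT replicate 3 gave -2.3 (adjusted p = 0.0679). Fcgrt encodes the class I-like neonatal Fc receptor, which pairs with B2m. It fell from 291, 300 and 398 CPM in WT to 86.1, 119 and 103 CPM in sST2-KO mice (log2 fold change -1.68, adjusted p = 0.0126, and 0.0589 without WT replicate 3), while Mr1, Cd1d1 and Hfe, the other 3 class I-like genes tested, did not pass.

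Genes on a list of receptors for class I and related molecules had larger log2 fold changes than the class I genes. All 13 genes of the list, of CD8+ T cells, NK cells and myeloid cells, were called more than 2-fold higher in sST2-KO mice, against 9.04% of all genes. Their median log2 fold change was 2.4. Several, such as Klra3 and Cd160, had few counts in WT and passed the filter on low counts through the sST2-KO libraries. Such genes could hardly come out lower, so the count of 13 overstates the list. With at least 10 counts required in every library, 7 were tested and 7 called, with a median of 3.16. Cd8a was at 1.21, 2.26 and 3.21 CPM in WT and 31.5, 24.6 and 34.6 CPM in sST2-KO mice (log2 fold change 3.77, adjusted p = 0.009 in edgeR), and Cd8b1 rose by 3.61 (adjusted p = 0.00912). Lilrb4a, an inhibitory receptor of myeloid cells, rose by 3.26 (adjusted p = 0.0144). It belongs to a family with class I receptors, but its known ligand is an integrin, and without it the list held 12 genes, all 12 called, with a median of 2.35. With 1 library left out, 3 to 13 of the 13 were called, 8 without WT replicate 2 and 3 without WT replicate 3, and their median stayed between 2.21 and 2.58. Several of the NK receptor genes of the Klra family were under 3 CPM in WT and resemble each other, so their single values are uncertain.

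Markers of T cells and NK cells, which carry most of these receptors, were higher in the same libraries, and those of myeloid cells varied. T cell markers summed to 11.2 to 13.2 CPM in WT and 93.1 to 120 CPM in sST2-KO mice, with 6 of 6 higher at the adjusted p. NK and cytotoxic cell markers summed to 38.1 to 64.6 and 624 to 983 CPM, with 5 of 6 higher. Neutrophil markers summed to 28.8 to 120 and 134 to 666 CPM with 3 of 6 higher, and macrophage markers to 589 to 790 and 791 to 2853 CPM with 0 of 8 in edgeR, against 3 of 8 at an unadjusted p under 0.05 and 3 of 8 in DESeq2. The macrophage sums were 790, 762 and 589 CPM in WT and 791, 845 and 2853 CPM in sST2-KO mice, so that sST2-KO replicate 3 stood apart. Dendritic cell markers summed to 49.9 to 67.4 and 55 to 71.9 CPM, which overlapped, with 3 of 6 higher. The estimates of 5 of these 6 were higher in sST2-KO mice, and that of 1, Zbtb46, was lower (log2 fold change -0.97, adjusted p = 0.099 in edgeR). At 53.2, 32.9 and 50.8 CPM, Zbtb46 made up most of the sum in WT, so the sum does not show the other 5. It was named after its values had been seen. The part of these cells in the receptor values was not tested. None of the markers was at 0 in all WT libraries, but some had few counts there and passed the filter through the sST2-KO libraries. With at least 10 counts required in every library, 4 T cell, 5 NK and cytotoxic cell and 3 neutrophil markers were tested. All of these were higher at the adjusted p. Without WT replicate 3, 4 of 6 T cell markers and 3 of 6 NK and cytotoxic cell markers passed, and 0 of 6 of both the neutrophil markers and the markers shared by leukocytes did.

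The class I genes differed less between the groups than the leukocyte markers did. The mean log2 CPM of the 10 genes was 8.93 ± 0.19 in WT and 9.3 ± 0.19 in sST2-KO mice, a difference of 0.37, while the mean over the 6 leukocyte markers went from 5.38 to 7.57, a difference of 2.18. The class I genes minus the leukocyte markers stood at 3.55 ± 0.15 in WT and 1.74 ± 0.69 in sST2-KO mice (exact permutation p = 0.1, the smallest the test allows). This lower value follows from the higher leukocyte markers given above and is no separate result. The brown adipocyte markers, of which all 7 fell, had a median log2 fold change of -3.37. Without WT replicate 2 or 3, 3 and 1 of these 7 passed, with medians of -3.44 and -3.13. How much of the class I transcript came from each cell type was not tested.

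**Figure D5:**
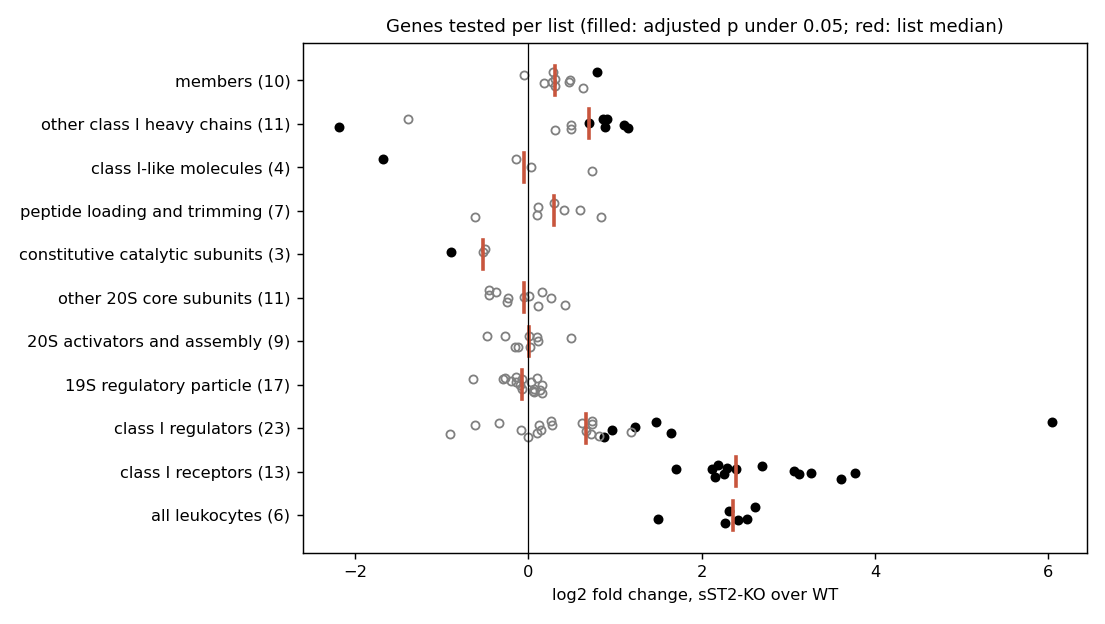
Log2 fold changes of sST2-KO over WT for the genes of each list, with 1 point per gene and the median as a line. The 10 class I genes lie between -0.049 and 0.79, the receptors between 1.7 and 3.77 and the leukocyte markers between 1.49 and 2.61.

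Per kilobase of exon, with the exons of all annotated transcripts of a gene merged, the order of the 10 genes in WT was led by the light chain. Merged exons can be longer than the transcript that is made, by a factor that differs between genes. The order between genes is therefore uncertain, while the comparison of WT with sST2-KO mice within a gene does not depend on its length. B2m was at 1333 ± 164, H2-D1 at 994 ± 202 and H2-K1 at 793 ± 106 CPM per kb (mean ± SD, n = 3). The ranges of neighbours in this order overlapped, from 1215 to 1520 for B2m, 853 to 1226 for H2-D1 and 705 to 910 for H2-K1. Tapbp at 135 ± 19.7, Psmb8 at 131 ± 26.6 and Psmb10 at 101 ± 27.5 formed a middle group whose ranges overlapped. Tap2 at 50.2 ± 10.8, Psmb9 at 39.5 ± 4.94 and Tap1 at 38.7 ± 6.74 were lower, and Nlrc5 was lowest at 12.5 ± 3.1 CPM per kb.

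In sST2-KO mice the order was the same at the top, with B2m at 1657 ± 86.1, H2-D1 at 1203 ± 67.8 and H2-K1 at 1109 ± 73.8 CPM per kb. On these merged lengths, Tap1 moved from the ninth place to the seventh, at 66.8 ± 7.29 CPM per kb. It was above Tap2 at 56.8 ± 15.3 and Psmb9 at 47.6 ± 7.29, although the SDs of Tap1 and Tap2 overlapped. The constitutive subunits went from 42.4 to 22.8 CPM per kb for Psmb5, from 67.4 to 47.5 for Psmb6 and from 35.5 to 24.6 for Psmb7. Psmb8 thus exceeded Psmb5 per kb of merged exon in both groups.

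The genes whose profile over the 6 libraries was most like the mean of the 10 genes were Sec24b, which encodes a coat protein of vesicles leaving the endoplasmic reticulum, Smad2, a mediator of TGF-beta signals, and Ctbp2, a transcriptional corepressor. Their root mean square differences were 0.055, 0.06 and 0.062 on the log2 scale among 9836 candidates. Their log2 fold changes were 0.36, 0.33 and 0.28, and none passed the adjusted p.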

How the data were processed

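RNA-seq libraries of BAT from 3 WT and 3 sST2-KO mice were grouped and numbered by their sample labels. The authors aligned paired-end reads to mm39 with HISAT2 (2.2.1 in the submitters' processing notes, with FastQC 0.12.1), counted them with htseq-count and deposited raw read counts per gene. The use of strand is not given in the sources used here. The labels do not name litters, so p-values measure the spread between these 3 mice a group. All 6 columns were used.

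The analysis used edgeR 4.0.16 in R 4.3.3: filterByExpr left 14542 of 35976 genes, TMM factors were 0.825 to 1.14, and the quasi-likelihood test had genotype as its only term, with Benjamini-Hochberg adjustment over all genes tested. Genes called higher or lower had both an adjusted p under 0.05 and more than a 2-fold difference. The study's methods name DESeq2, which was run as an alternative (1.42.0). Normalized levels are CPM on TMM-scaled library sizes, and a ratio within a library had 0.5 added to each count. Between libraries of the same group, chi-square divided by its degrees of freedom was 40.1 to 114, so that no 2 agreed within sampling noise.

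The members and lists were chosen with earlier results of these data known. The text names all 10 members, Psmb5, Psmb6, Psmb7, Psme1, Psme2, Irf1, Ifng, Rfx5 and Ciita, up to 3 genes with an adjusted p under 0.05 and the largest changes from each other pathway list, any tested gene of lists of 7 or fewer, and the 3 genes most like the mean of the members among genes at or above 3 in mean log2 CPM. Exceptions are stated, and 1 further gene of this rule is not reported here. Marker lists are given as sums and counts, apart from Ptprc and Zbtb46. Positions and overlaps come from GENCODE M39 on GRCm39. The edgeR fit was tested on simulated counts with less spread between libraries than these data, and the permutation test on made-up values. The other steps were not tested in this way. Python 3.11.15 and matplotlib 3.10.9 drew the figures.

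The alternatives were RLE factors, total counts, DESeq2, no filter, at least 10 counts in every library, robust estimation, a block for replicate number, p without adjustment, a minimum of 1.5-fold, and fits that each left out 1 library.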

Additional observations from a re-analysis of the deposited data

How the results depend on the processing

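Of the 10 members, 1 (Tap1) passed the adjusted p, as did 2847 of 14542 genes. This count was 0 with RLE size factors, where 2831 of all genes passed, and without a filter, where 2940 of 24599 did. It was also 0 under the replicate block, where 0 of all genes passed, and whenever 1 library was left out, where 58 to 2520 did. With unadjusted p it was 2, against 5269 of 14542 genes. Members called higher went from 0 to 1 with total counts and with a 1.5-fold minimum, and their median log2 fold change was 0.56 with total counts. In the pathway lists, 19 genes were called higher and 2 lower. These counts were 0 and 0 under the replicate block, 3 to 21 and 0 to 4 with 1 library left out, 9 higher without WT replicate 2 and 3 higher and 0 lower without WT replicate 3. Over all genes, 58 passed the adjusted p without WT replicate 3, against 2847 with all libraries, and the cause was not tested.

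The log2 fold change of Psmb8 reversed to 0.21 with total counts, 0.11 without WT replicate 2, 0.045 without sST2-KO replicate 1 and 0.049 without sST2-KO replicate 3, in a range of -0.29 to 0.11 with 1 library left out. Without sST2-KO replicate 2, Tap2 reversed to -0.088 and Psme2 to -0.0056, and their highest values with 1 library left out were 0.36 and 0.16. For 28 genes named by the rule, 313 of 363 values under the alternatives kept their direction and their side of the threshold.

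The log2 ratios of Psmb8 to Psmb5, Psmb9 to Psmb6 and Psmb10 to Psmb7 stayed between 0.56 and 0.95, 0.58 and 0.91, and 0.66 and 1.06 with 1 library left out. The replicate numbers did not pair the mice, since deviations from the group means correlated at -0.058, 0.21 and -0.31. The replicate block left 0 of 14542 genes at the adjusted p, against 4623 at an unadjusted p under 0.05. With 3 mice a group, the 95% interval of every member except Tap1 and Nlrc5 included 0. Differences of any size within these intervals are compatible with the data.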
